A study of Homo sapiens with 24 samples.

Results

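The neratinib by resistance experiment in the bladder carcinoma line 5637 asked how the transcriptional response to neratinib differed between neratinib-resistant cells (5637NR, here NR) and the parental cells they came from. It was the set of 12 libraries labelled 5637, of 24 in the series, and the quantity was the drug effect in NR cells minus the drug effect in parental cells, which is called the interaction. The 4 groups, of 3 libraries each, were NR cells given neratinib, NR cells without it, parental cells given neratinib and parental cells without it. Neratinib was given at 600 nM for 24 h, and the controls got none. NR cells had been kept away from the drug for 1 week before seeding, so NR controls are resistant cells off drug. How many clones the NR line holds was not given in the sources used here, so a difference between NR and parental cells may belong to 1 selected line and not to resistance in general. Each group's 3 libraries were triplicate dishes, which may share 1 culture and so differ only technically, so p-values measure only the spread between these dishes.

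Neratinib binds the kinases of EGFR, ERBB2 and ERBB4 irreversibly. These receptors feed the RAS, RAF and ERK cascade, whose early targets include transcription factors (EGR1, FOSL1), phosphatases and Sprouty proteins that dampen the cascade, and cyclin D1. They also feed PI3K, AKT and mTORC1, which promote sterol synthesis through the SREBP factors, nucleotide and protein synthesis, and entry into the cell cycle. ATF4 is the transcription factor of the integrated stress response and drives genes for amino acid synthesis, transport and tRNA charging.

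The 12 libraries held 34.9 to 43.3 M counts, and 18307 of the 39786 genes in the table passed the filter on low counts. In such bulk RNA, fewer cells expressing a gene and less of its RNA per cell cannot be told apart. Genes over 8 kb took 20.9% to 22.4% of counts, and no library stood apart in that share. Mitochondrial genes took 8.73% to 11.3%, and both ends of this range were NR neratinib libraries (10.8%, 11.3% and 8.73%). The first principal component held 61% and the second 18.2% of the variance. The summed level of 6 epithelial markers (EPCAM, CDH1, KRT7, KRT8, KRT18 and KRT19) lay at 4110 to 4830 CPM in NR neratinib and 4660 to 5070 CPM in NR control libraries, against 8080 to 9020 CPM in parental neratinib and 9410 to 10100 CPM in parental control libraries, where CPM is the count scaled by the library total. Of 9 urothelial markers matched in the table, 7 reached 1 CPM in 3 libraries, with sums of 1480 to 1580 CPM in NR neratinib, 796 to 836 CPM in NR control, 4500 to 4760 CPM in parental neratinib and 4320 to 4440 CPM in parental control libraries. The uroplakins UPK1A and UPK3A, which mark the surface cells of the bladder lining, were under 1 CPM in every library, while UPK1B lay at 2.6 to 8.41 CPM and UPK2 at 1.01 to 4.07 CPM. None of 6 leukocyte markers reached 1 CPM in 3 libraries, and their sum was at most 1.36 CPM.

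Of 18307 genes tested with the quasi-likelihood test of edgeR at an adjusted p of 0.05, neratinib raised 3372 (18.4%) and lowered 3858 (21.1%) in NR cells, and raised 4368 (23.9%) and lowered 4297 (23.5%) in parental cells. The interaction was higher for 1352 genes (7.39%) and lower for 1187 (6.48%), and 507 of these (2.77% of genes tested) differed at least 2-fold. A higher interaction means that the drug effect was more positive, or less negative, in NR cells. With scaling to library size alone the share of calls that were rises was 67.4% in NR cells and 64.2% in parental cells, against 46.6% and 50.4% with TMM scaling, and the median effect over the tested genes was 0.12 and 0.13 on the log2 scale, against 0 and 0.02, so small fold changes depend on the scaling. The interaction moved less, with 1477 higher and 1116 lower calls.

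Genes were sorted by their calls in these 3 contrasts. A response was lost where parental cells responded, NR cells had no call and the interaction was called against the parental direction. This held for 402 rises (2.2%), or 257 without parental control replicate 2, and for 448 falls (2.45%). It was weakened where both responded alike and the interaction was called as smaller in NR cells, for 202 rises (1.1%) and 445 falls (2.43%), together 647 genes, or 406 without NR control replicate 1. It was kept where both responded alike with no interaction called, for 2005 rises (11%) and 2067 falls (11.3%). Strengthened responses numbered 114 rises (0.623%) and 165 falls (0.901%). Reversed responses, called in opposite directions, numbered 114 for parental rises (0.623%) and 107 for parental falls (0.584%). Gained responses, called in NR cells with no call in parental cells, numbered 225 rises (1.23%) and 299 falls (1.63%). A further 2596 genes (14.2%) were called in parental cells only and 1487 (8.12%) in NR cells only without an interaction call, so whether those responses differ was unresolved. No response was called for 7613 genes (41.6%), and 18 (0.0983%) had an interaction call alone.

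No call is not the same as no response, so intervals were read beside the classes. Among lost responses the 95% interval of the NR effect lay within 1.5-fold either way for 404 of 448 falls and 318 of 402 rises. Among kept responses the interval of the interaction lay within 1.5-fold for 1661 of 2067 falls and 1245 of 2005 rises. Across all 18307 genes the NR and parental effects had a Pearson r of 0.61, a description in which genes are not independent replicates. Of 1102 genes that rose at least 2-fold in parental cells, 475 (43.1%) kept the rise, 129 weakened, 85 lost it and 15 reversed it, and 375 were unresolved. Of 616 that fell at least 2-fold, 241 (39.1%) kept the fall, 125 (20.3%) weakened, 66 lost it, 11 reversed it and 146 were unresolved.

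**Figure D1:**
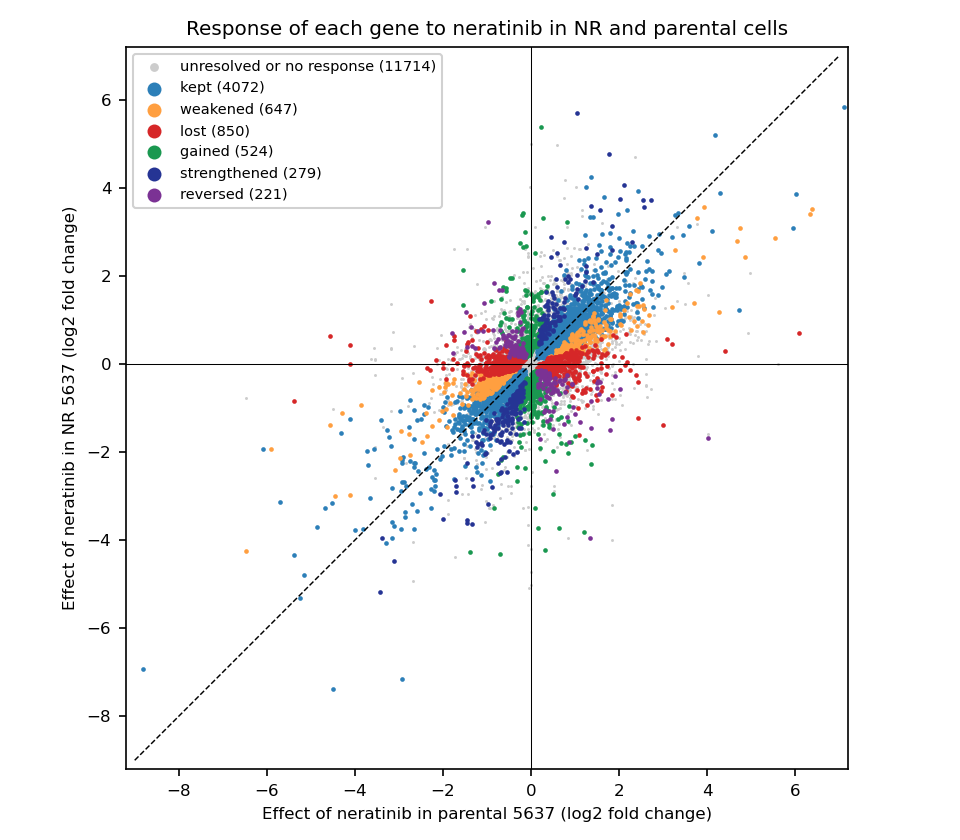
Effect of neratinib on each of 18307 genes in NR cells (vertical axis) and parental cells (horizontal axis), both as log2 fold changes from edgeR, coloured by response class with the number of genes in brackets; the dashed line marks equal effects. Lost responses lie along the horizontal axis and gained ones along the vertical axis, and kept responses, 4072 genes, lie around the dashed line.

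The gene lists differed in the classes they held. Sterol and mitosis genes held lost or weakened falls almost throughout, with 19 of 23 sterol genes and 30 of 31 mitosis genes higher in the interaction and 0 lower, where 7.39% of all genes were higher. Genes of ERK output kept or strengthened their falls in 18 of 23 cases, where 11.3% of all genes had kept and 0.901% strengthened falls. Among ATF4 genes 15 of 34 had weakened rises, as did 1.1% of all genes. The median interaction was 1.11 for the sterol list, 0.67 for mitosis, -0.17 for ERK output and -0.41 for ATF4 genes, against -0.01 for all genes on the log2 scale. The lists were written with earlier results of these data known, so these counts describe the members and are not independent evidence.

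**Figure D2:**
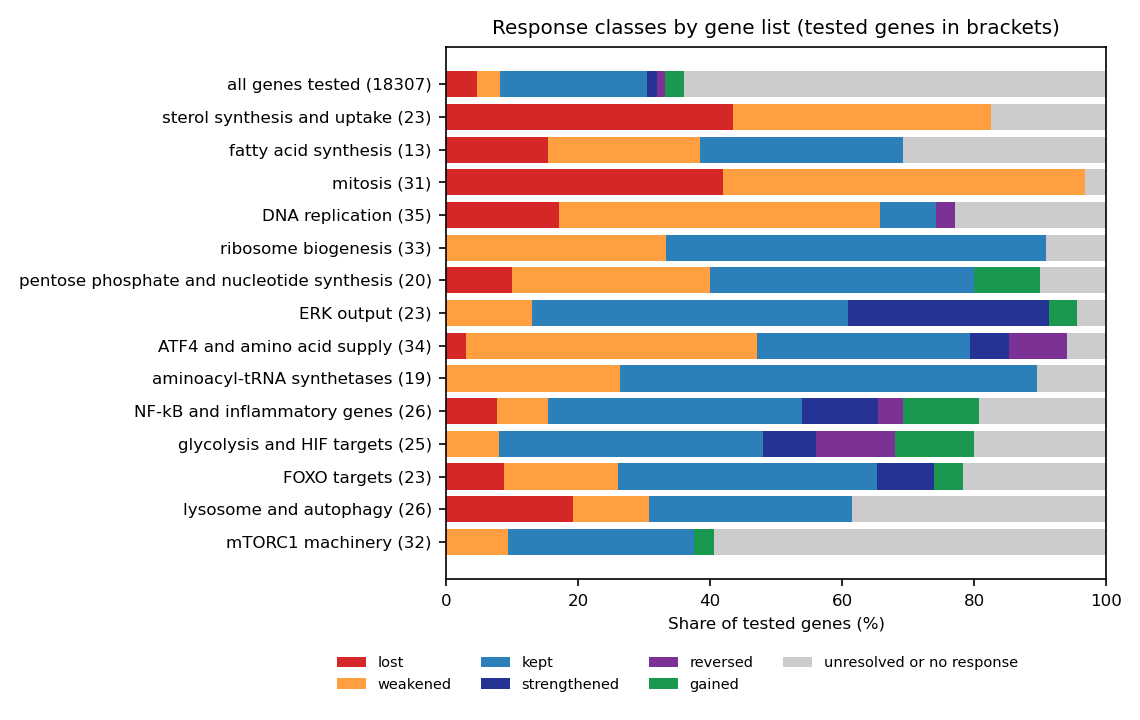
Share of tested genes in each response class (horizontal axis, %), for all genes and for 14 gene lists with their number of tested genes in brackets. Lost and weakened responses fill 19 of 23 sterol genes and 30 of 31 mitosis genes, and kept and strengthened falls fill 18 of 23 genes of ERK output.

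Sterol synthesis and uptake had the highest median interaction of the 28 lists described. In parental cells 21 of 23 tested genes fell and in NR cells 9 fell, where 23.5% and 21.1% of all genes fell. The median log2 fold change of the list was -0.19 in NR cells and -1.36 in parental cells. HMGCS1 (ENSG00000112972.10, hg19 chr5:43289497-43313614), which makes the precursor of mevalonate, had 70.4, 85.7 and 86.5 CPM in the NR neratinib libraries and 107, 117 and 94.2 CPM in the NR controls, against 16.9, 17.7 and 18.4 CPM in the parental neratinib libraries and 68.5, 71.8 and 68.4 CPM in the parental controls. NR neratinib dishes lay below the NR controls, overlapped the parental controls and lay above all parental neratinib dishes. Its log2 fold change was -0.52 in NR cells and -2.08 in parental cells, a difference of 1.57 ± 0.11 (SE, edgeR adjusted p = 3e-07).

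Other enzymes of the pathway also fell less in NR cells. SQLE (ENSG00000104549.7, hg19 chr8:126010739-126034525), the squalene epoxidase, had 154, 182 and 176 CPM in NR dishes with neratinib and 170, 175 and 156 CPM in those without it, and 48, 43.3 and 47.3 CPM in parental dishes with neratinib and 170, 174 and 166 CPM in those without it. NR dishes with and without drug overlapped for SQLE, and both overlapped the parental controls. Its log2 fold change was -0.09 in NR cells and -1.99 in parental cells, a lost fall with an interaction of 1.89 ± 0.09 (SE, edgeR adjusted p = 2.6e-09). IDI1, which makes an isoprenoid building block, had 24.5, 36.7 and 41.6 CPM in NR cells on neratinib and 42, 51 and 36.4 CPM in NR controls, and in parental cells 8.29, 9 and 9.2 CPM on neratinib and 29.4, 34.1 and 30.8 CPM in controls. The NR groups overlapped in CPM for IDI1, and parental dishes on neratinib lay below all the others. The test called it a weakened fall, with an interaction of 1.48 ± 0.21 (SE, edgeR adjusted p = 2e-04). INSIG1, a membrane protein that retains SREBP when sterols are plentiful, also had a weakened fall, with averages of 41.6 ± 2.74 CPM in NR neratinib and 50.6 ± 7.5 CPM in NR control dishes, against 11.3 ± 0.0826 CPM in parental neratinib and 39.8 ± 0.977 CPM in parental control dishes (SD, n = 3 each).

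SREBF2, which encodes the SREBP factor of sterol genes, had 303, 242 and 262 CPM in the NR neratinib libraries and 246, 235 and 252 CPM in the NR controls, against 179, 183 and 177 CPM in the parental neratinib libraries and 331, 342 and 344 CPM in the parental controls. Its log2 fold change was 0.02 in NR cells and -1.02 in parental cells, a lost fall with an interaction of 1.04 ± 0.1 (SE, edgeR adjusted p = 7.5e-06).

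The sterol regulatory element is the site that SREBP factors bind, and its core TCACNCCAC was searched on both strands from 250 bases before to 50 bases after the start of each RefSeq gene. It was found in 1 of 16 sterol genes with a promoter in the table, SREBF2, and in 313 of all 27305 promoters; no match in this window says only that these letters were not there. The SREBF2 stretch (GRCh38.p14 chr22:41832946-41833006, plus strand), with the match in capitals beginning 133 bases before the start, is shown because the fall of this regulator was itself among those lost.
SREBF2: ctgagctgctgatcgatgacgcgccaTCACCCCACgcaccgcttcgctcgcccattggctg
The letters CCAAT, to which the factor NF-Y binds, were in 13 of 16 of these promoters, 20 of 26 mitosis promoters and 35.7% of all promoters. That motif was added to the search after results were known.

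Fatty acid synthesis was divided. Of 13 tested genes 5 were higher in the interaction and 0 lower, or 9 higher without NR neratinib replicate 1, where 7.39% of all genes were higher and 6.48% lower. Among the 13 genes 2 falls were lost and 3 weakened, where 2.45% and 2.43% of all genes had such falls. SCD, the stearoyl-CoA desaturase, averaged 100 ± 2.63 CPM in NR neratinib and 107 ± 4.62 CPM in NR control dishes, against 56.4 ± 2.77 CPM in parental neratinib and 148 ± 4.62 CPM in parental control dishes (SD, n = 3 each), with an interaction of 1.27 ± 0.07 (SE, edgeR adjusted p = 2.9e-08). FADS2, a desaturase of polyunsaturated fatty acids, lost its fall, with a log2 fold change of 0.11 in NR cells and -1.14 in parental cells. FASN, the fatty acid synthase, fell in both, by 0.73 in NR cells and by 1.48 in parental cells on the log2 scale.

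**Figure D3:**
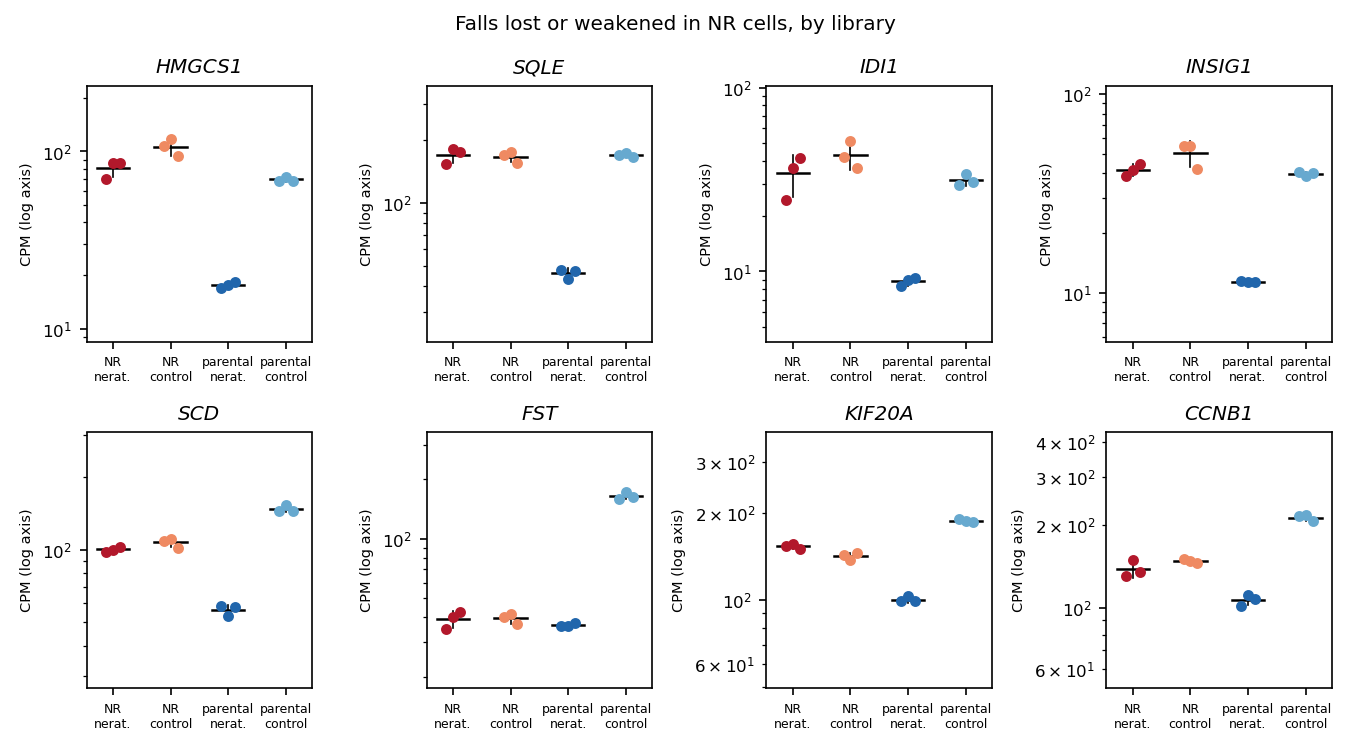
CPM on a log axis in each of 12 libraries for genes of sterol and fatty acid synthesis (HMGCS1, SQLE, IDI1, INSIG1 and SCD), the activin antagonist FST and the mitotic genes KIF20A and CCNB1; points are libraries, bars the mean and vertical lines the SD (n = 3). Parental neratinib libraries lie below parental controls for every gene plotted, and the 2 NR groups overlap for SQLE, IDI1, INSIG1, SCD, FST and CCNB1.

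Sterol efflux genes changed in the other direction. ABCG1 and ABCA1 encode transporters that export cholesterol and are targets of the LXR receptors. ABCG1 (ENSG00000160179.14, hg19 chr21:43619799-43717354) had 2.66, 2.84 and 2.68 CPM in the NR neratinib libraries and 2.23, 3.1 and 2.89 CPM in the NR controls, against 16.3, 18.9 and 16.1 CPM in the parental neratinib libraries and 3.61, 4.49 and 3.67 CPM in the parental controls. All 3 parental dishes on neratinib lay above all other dishes, and the NR groups overlapped, giving a log2 fold change of -0.13 in NR cells and 2.02 in parental cells and an interaction of -2.15 ± 0.19 (SE, edgeR adjusted p = 2.2e-06). ABCA1 rose in both, with a log2 fold change of 0.35 in NR cells and 1.68 in parental cells. ABCG1 and ABCA1 were the 2 lower in the interaction of 6 tested LXR genes, with 0 higher, where 6.48% of all genes were lower and 7.39% higher. The other 4 had no interaction call.

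Other lost rises included a kinase, a set of membrane and structural genes and regulators of lysosomes. DCLK1, a doublecortin-like kinase, had 10.2, 11.6 and 13.1 CPM in NR cells on neratinib and 12.1, 11.4 and 10.4 CPM in NR controls, and in parental cells 27.2, 27.9 and 33.2 CPM on neratinib and 10, 9.17 and 8.05 CPM in controls. Parental dishes on neratinib lay above all the others, and the interaction was -1.67 ± 0.15 (SE, edgeR adjusted p = 2.8e-06). TFEB (ENSG00000112561.13, hg19 chr6:41651716-41703997), the main transcription factor of lysosome and autophagy genes, averaged 3.78 ± 0.416 CPM in NR neratinib and 4.45 ± 0.651 CPM in NR control dishes, against 11.1 ± 1.61 CPM in parental neratinib and 4.88 ± 0.0384 CPM in parental control dishes (SD, n = 3 each), with an interaction of -1.44 ± 0.2 (SE). In the lysosome and autophagy list 7 of 26 tested genes were lower in the interaction, against 6.48% of all genes. In that list 4 rises were lost, 3 weakened and 7 kept, where 2.2%, 1.1% and 11% of all genes had such rises. ULK1, the kinase that starts autophagy, and MAP1LC3B, which coats autophagosomes, lost their rises with interactions of -0.71 and -0.73. MDGA1, a membrane protein, and CCDC88B, a coiled-coil protein, lost rises of 1.41 and 1.08, all on the log2 scale.

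All 31 mitosis genes fell in parental cells, with a median of -0.86, and 17 fell in NR cells, with a median of -0.21. Of all genes 23.5% fell in parental cells and 21.1% in NR cells. In the mitosis list 13 falls were lost and 17 weakened, where 2.45% and 2.43% of all genes had such falls. KIF20A (ENSG00000112984.7, hg19 chr5:137514408-137523404), a kinesin of cytokinesis, had 154, 156 and 150 CPM in NR cells on neratinib and 143, 137 and 145 CPM in NR controls, and in parental cells 98.7, 103 and 98.9 CPM on neratinib and 190, 187 and 186 CPM in controls. CPM values are not corrected by TMM factors, and after that correction its log2 fold change was -0.01 in NR cells and -1.01 in parental cells, with an interaction of 1 ± 0.07 (SE, edgeR adjusted p = 3.1e-07). CCNB1, cyclin B1, had 131, 149 and 135 CPM in NR dishes with neratinib and 150, 148 and 145 CPM in those without it, and 102, 111 and 108 CPM in parental dishes with neratinib and 215, 217 and 207 CPM in those without it. Every NR dish, with or without drug, lay between the 2 parental groups. PTTG1, securin, had a log2 fold change of -0.25 in NR cells and -1.14 in parental cells.

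DNA replication genes had the same direction, with a lower median interaction of 0.4. Of 35 tested genes 24 were higher in the interaction and 0 lower, with 6 lost and 17 weakened falls, where 7.39% of all genes were higher, 2.45% had lost falls and 2.43% weakened falls. MCM10, which loads replication factors at origins, averaged 41.8 ± 2.62 CPM in NR neratinib and 59.3 ± 2.13 CPM in NR control dishes, against 21.9 ± 1.49 CPM in parental neratinib and 55.9 ± 2.67 CPM in parental control dishes (SD, n = 3 each), an interaction of 0.83 ± 0.09 (SE, edgeR adjusted p = 2.4e-05). CDC6, which licenses origins, and FEN1, a nuclease of the lagging strand, had interactions of 0.7 and 0.6. Of 20 tested genes of the pentose phosphate pathway and nucleotide synthesis 10 were higher and 0 lower; TYMS, thymidylate synthase, lost its fall (-0.18 in NR cells and -0.75 in parental cells). Among 13 tested G1 cyclins and CDK inhibitors 3 were higher and 3 lower in the interaction, where 7.39% of all genes were higher and 6.48% lower. The 3 higher became 0 or 1, near the share of all genes, in 8 of the 12 fits that left out 1 library. In that list CCND3, cyclin D3, kept its fall (-0.94 in NR cells and -0.81 in parental cells). Of 33 tested ribosome biogenesis genes 19 falls were kept and 11 weakened, where 11.3% and 2.43% of all genes had such falls. The median of this list was -0.53 in NR cells and -0.69 in parental cells. With all 12 libraries 11 of its genes were higher in the interaction, against 7.39% of all genes. These 11 calls became 4 to 6 on leaving out parental control replicate 1 or 2, parental neratinib replicate 1 or NR control replicate 1.

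Single genes outside these pathways also lost their falls. FST (ENSG00000134363.7, hg19 chr5:52776239-52782964), follistatin, which binds activin, had 34.9, 40.1 and 42.6 CPM in the NR neratinib libraries and 40, 41.7 and 36.8 CPM in the NR controls, against 36, 36 and 37.3 CPM in the parental neratinib libraries and 160, 173 and 163 CPM in the parental controls. NR dishes with and without drug overlapped the parental dishes on neratinib and lay below the parental controls, and the NR groups overlapped each other. Its interaction was 2.15 ± 0.09 (SE, edgeR adjusted p = 1.4e-09). MMP13, a collagenase, and KRT13, a keratin, were sorted as lost falls too, but in NR cells they stood at 0 to 8 and 2 to 6 counts per library, against 10 to 618 and 1447 to 5915 counts in parental cells, so no fall could have been measured in NR cells.

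ERK output fell in both NR and parental cells. In NR cells 22 of 23 tested genes fell and in parental cells 21 fell, with a median log2 fold change of -2.4 in NR cells and -2 in parental cells, where 21.1% and 23.5% of all genes fell. DUSP6 (ENSG00000139318.7, hg19 chr12:89741009-89747048), the phosphatase that inactivates ERK, had 4.71, 5.14 and 5.52 CPM in the NR neratinib libraries and 131, 134 and 128 CPM in the NR controls, against 2.65, 1.74 and 1.92 CPM in the parental neratinib libraries and 75.1, 72.5 and 60.8 CPM in the parental controls. The drug effect was -4.8 in NR cells and -5.16 in parental cells, and the interaction of 0.36 ± 0.17 (SE, edgeR adjusted p = 0.19) had a 95% interval of 0 to 0.71. Without parental neratinib replicate 1 the interaction passed the threshold, at 0.55. SPRY4, a Sprouty inhibitor of the cascade, had 2.08, 1.64 and 1.51 CPM in NR cells on neratinib and 64.8, 59.8 and 66.8 CPM in NR controls, and in parental cells 0.351, 0.349 and 0.14 CPM on neratinib and 8.49, 9.69 and 11.4 CPM in controls. NR controls lay above parental controls for DUSP6 and SPRY4, and on neratinib both genes stood at no more than 5.52 CPM in either.

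EGR1 (ENSG00000120738.7, hg19 chr5:137801179-137805004), an immediate early transcription factor, had 0.439, 0.464 and 0.371 CPM in NR dishes with neratinib and 42.8, 40.3 and 60.2 CPM in those without it, and 0.594, 0.349 and 0.677 CPM in parental dishes with neratinib and 272, 252 and 155 CPM in those without it. The NR and parental groups overlapped on neratinib, all under 1 CPM, and the interaction of 1.88 ± 0.63 (SE, edgeR adjusted p = 0.063) did not pass, although it did with DESeq2 at 1.89. Strengthened falls included CCND1, cyclin D1 (ENSG00000110092.3, hg19 chr11:69455855-69469242), with 97.6, 90.5 and 96.4 CPM in the NR neratinib libraries and 543, 528 and 544 CPM in the NR controls, against 131, 133 and 134 CPM in the parental neratinib libraries and 419, 408 and 399 CPM in the parental controls. All NR neratinib dishes lay below all other dishes for CCND1, and the interaction was -0.9 ± 0.07 (SE, edgeR adjusted p = 7.3e-07). SPRY1 and SPRED1, further inhibitors of the cascade, had strengthened falls with interactions of -1.5 and -0.72. The falls that weakened were those of FOSL1, DUSP4 and MYC, with interactions of 1.27, 0.69 and 0.36. FOSL1, a partner of JUN in AP-1, had 829, 704 and 712 CPM in NR cells on neratinib and 1520, 1340 and 1620 CPM in NR controls, and in parental cells 75.2, 79.6 and 75.5 CPM on neratinib and 391, 369 and 363 CPM in controls. NR dishes on neratinib held more FOSL1 than parental dishes without drug.

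The receptors showed no call in the interaction by edgeR. EGFR had a log2 fold change of -0.02 in NR cells and 0.14 in parental cells, called in parental cells only, and its interaction of -0.15 ± 0.07 (SE, edgeR adjusted p = 0.18) had an interval of -0.31 to 0. ERBB2 averaged 217 ± 22.5 CPM in NR neratinib and 156 ± 8.05 CPM in NR control dishes, against 331 ± 9.14 CPM in parental neratinib and 268 ± 7.25 CPM in parental control dishes (SD, n = 3 each). ERBB3 averaged 61.9 ± 0.65 CPM in NR neratinib and 41.6 ± 0.606 CPM in NR control dishes, against 97.5 ± 1.78 CPM in parental neratinib and 74.8 ± 0.564 CPM in parental control dishes (SD, n = 3 each). Both were kept rises, with interactions of 0.15 ± 0.1 and 0.17 ± 0.07 (SE). The interaction of ERBB3 was called by DESeq2, at 0.18. ERBB4 had no call in any contrast, and HBEGF and NRG1 had the calls among the ligands.  HBEGF, which binds EGFR and ERBB4, had 46, 50.9 and 51.8 CPM in the NR neratinib libraries and 206, 214 and 221 CPM in the NR controls, against 20.4, 21.6 and 19.2 CPM in the parental neratinib libraries and 32, 32.3 and 30.7 CPM in the parental controls. HBEGF stood higher in NR controls than in any other group, and its fall was strengthened, -2.24 in NR cells and -0.74 in parental cells, with an interaction of -1.49 ± 0.09 (SE, edgeR adjusted p = 3.6e-08). The other was NRG1, the ligand of ERBB3 and ERBB4, which is given with the reversed responses.

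Most genes of ATF4 and amino acid supply rose in both, with a smaller median in NR cells. Of 34 tested genes 28 rose in NR cells, with a median of 1.19 over the list, and 31 in parental cells, with a median of 1.68, where 18.4% and 23.9% of all genes rose. In NR cells 5 fell, where 21.1% of all genes fell. Among the parental rises 3 were reversed, where 0.623% of all genes had reversed rises. STC2, given with the reversed responses, is 1 of the 3. In the interaction 19 were lower, against 6.48% of all genes, and 2 were higher, near the 7.39% of all genes. CHAC1 (ENSG00000128965.7, hg19 chr15:41245160-41248710), which degrades glutathione, had 44.8, 30.6 and 42.1 CPM in the NR neratinib libraries and 6.63, 6.03 and 7.46 CPM in the NR controls, against 81.4, 80.2 and 73.2 CPM in the parental neratinib libraries and 2.66, 2.44 and 2.35 CPM in the parental controls. NR controls lay above parental controls and NR neratinib dishes below parental neratinib dishes. The log2 fold change was 2.42 in NR cells and 4.87 in parental cells, and the interaction -2.45 ± 0.2 (SE, edgeR adjusted p = 8.4e-07). TRIB3, a pseudokinase that restrains ATF4, had 94, 78.3 and 95.6 CPM in NR dishes with neratinib and 34.2, 37.8 and 42.1 CPM in those without it, and 107, 102 and 91.4 CPM in parental dishes with neratinib and 15.6, 13.5 and 14.3 CPM in those without it. On neratinib the NR and parental dishes overlapped for TRIB3, and without it NR dishes lay higher.

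ASNS, asparagine synthetase, had 266, 298 and 281 CPM in NR cells on neratinib and 20.8, 21.2 and 23.3 CPM in NR controls, and in parental cells 415, 422 and 421 CPM on neratinib and 26.3, 24.4 and 25.2 CPM in controls. Its rise was large in both, 3.57 in NR cells and 3.94 in parental cells, and the interaction was -0.38 ± 0.09 (SE, edgeR adjusted p = 0.0082). ATF3, a stress factor of the same family, had 12.2, 12.8 and 11.8 CPM in NR cells on neratinib and 6.73, 8.32 and 7.73 CPM in NR controls, and in parental cells 25.3, 25.8 and 25 CPM on neratinib and 7.42, 7.17 and 9.04 CPM in controls, with an interaction of -1.01 ± 0.14 (SE, edgeR adjusted p = 0.00018). ADM2 and INHBE, a secreted peptide and an activin subunit, had the lowest interactions among the weakened rises named, -2.86 for ADM2 and -2.68 for INHBE. Parental controls held 3 to 7 counts of ADM2 and 6 to 11 of INHBE per library, so both sizes are uncertain.

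The composite element that ATF4 binds with C/EBP partners has the core TGATGNAA, which was in 5 of 28 promoters of this list and in 3.67% of all promoters. The stretches of 3 genes whose rises weakened are shown with the match in capitals. It begins 68 bases before the start in ASNS (GRCh38.p14 chr7:97872443-97872502, minus strand), 209 bases before it in CHAC1 (GRCh38.p14 chr15:40953236-40953295, plus strand) and 191 bases before it in ATF3 (GRCh38.p14 chr1:212565190-212565249, plus strand). In CHAC1 the match is on the opposite strand.
ASNS: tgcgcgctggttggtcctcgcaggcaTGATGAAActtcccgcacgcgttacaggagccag
CHAC1: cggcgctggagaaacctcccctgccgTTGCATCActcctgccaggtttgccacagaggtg
ATF3: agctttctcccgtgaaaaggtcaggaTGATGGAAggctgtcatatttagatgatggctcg
The other 2 genes with the letters, SLC3A2 and SLC7A1, which take part in amino acid transport, kept their rises. ASNS, ATF3, SLC3A2, SLC7A1 and SREBF2 are named for their promoters, after their values were seen.

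Kept and strengthened rises of the list included serine synthesis and glycine transport. PSAT1, an aminotransferase of serine synthesis, had 134, 164 and 176 CPM in the NR neratinib libraries and 29.1, 30.8 and 26.3 CPM in the NR controls, against 205, 194 and 225 CPM in the parental neratinib libraries and 30.8, 32.6 and 30 CPM in the parental controls. Its interaction of -0.31 ± 0.12 (SE, edgeR adjusted p = 0.1) had an interval of -0.56 to -0.06. PHGDH, the first enzyme of that pathway, rose by 1.48 in NR cells and 1.06 in parental cells, a strengthened rise whose call was lost with all 24 libraries in 1 fit. SLC6A9, the glycine transporter GLYT1, had 57.7, 49.7 and 55 CPM in NR dishes with neratinib and 4.21, 4.02 and 4.33 CPM in those without it, and 135, 138 and 126 CPM in parental dishes with neratinib and 18.4, 21.1 and 22.7 CPM in those without it. NR controls were lowest of the 4 groups, and the interaction was 0.99 ± 0.12 (SE, edgeR adjusted p = 6e-05). Outside the list, ULBP1, a ligand of the NKG2D receptor of immune cells, kept a rise of 3.13 in NR cells and 3.58 in parental cells. Among 19 tested aminoacyl-tRNA synthetases 9 rises were kept, as were 11% over all genes. In that list 3 falls were kept, near the 11.3% over all genes.

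**Figure D4:**
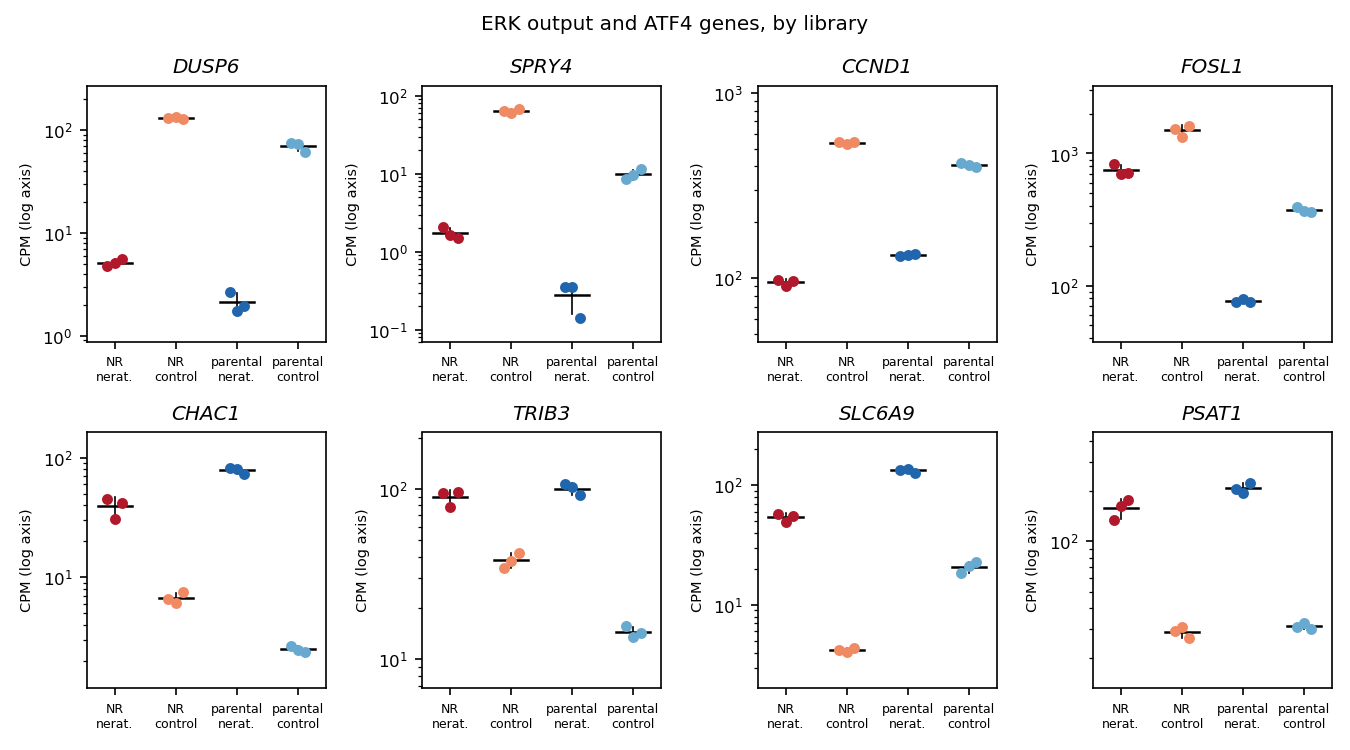
CPM on a log axis in each of 12 libraries for genes of ERK output (upper row) and of ATF4 and amino acid supply (lower row); points are libraries, bars the mean and vertical lines the SD (n = 3). Neratinib libraries lie below their controls in NR and parental cells for the upper genes and above them for the lower ones.

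Reversed responses with a fall in NR cells and a rise in parental cells included STC2, VEGFA and NDRG1. STC2 (ENSG00000113739.6, hg19 chr5:172741716-172756506), stanniocalcin 2, a secreted target of ATF4, had 372, 381 and 406 CPM in the NR neratinib libraries and 524, 541 and 505 CPM in the NR controls, against 259, 255 and 253 CPM in the parental neratinib libraries and 60.2, 59.3 and 55 CPM in the parental controls. Its log2 fold change was -0.56 in NR cells and 2.03 in parental cells, and every NR dish lay above every parental dish. The interaction was -2.6 ± 0.07 (SE, edgeR adjusted p = 8.6e-12). VEGFA (ENSG00000112715.16, hg19 chr6:43737921-43754224), the vascular growth factor, had 84.8, 77.5 and 75.6 CPM in NR cells on neratinib and 138, 123 and 133 CPM in NR controls, and in parental cells 66.3, 75.2 and 67.3 CPM on neratinib and 23.9, 25.9 and 25.7 CPM in controls. NDRG1, a stress gene induced by hypoxia, had 142, 126 and 132 CPM in NR dishes with neratinib and 160, 165 and 166 CPM in those without it, and 134, 134 and 128 CPM in parental dishes with neratinib and 44.8, 42.8 and 41.7 CPM in those without it. For STC2, VEGFA and NDRG1 the NR controls were the highest group and the parental controls the lowest, and the groups on neratinib lay between them.

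CDKN1A, the inhibitor p21 of cyclin-dependent kinases, was also highest in NR controls and lowest in parental controls. Its dishes held 134, 109 and 131 CPM in the NR neratinib libraries and 234, 229 and 253 CPM in the NR controls, against 131, 128 and 128 CPM in the parental neratinib libraries and 87.5, 92.1 and 90.7 CPM in the parental controls. The interaction was -1.48 ± 0.1 (SE, edgeR adjusted p = 2.4e-07), and NR and parental dishes on neratinib overlapped. DYSF, dysferlin of membrane repair, and ZNF469, a zinc finger protein, were also reversed, with interactions of -2.19 and -2.05. PELI2 met the rule, but from 0 to 5 counts per library in NR cells, so its fall there is not a measured size.

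Glycolysis and hypoxia genes were lower in the interaction in 8 of 25 cases, against 6.48% of all genes, and higher in 2, near the 7.39% of all genes. Of these 25 tested genes 22 fell in NR cells, with a median of -0.74, and 16 in parental cells, with a median of -0.39. Of all genes 21.1% fell in NR cells and 23.5% in parental cells. LDHA, lactate dehydrogenase, was a kept fall, with averages of 1230 ± 93.2 CPM in NR neratinib and 2760 ± 171 CPM in NR control dishes, against 434 ± 4.75 CPM in parental neratinib and 1030 ± 18.3 CPM in parental control dishes (SD, n = 3 each). BNIP3, a hypoxia gene of mitochondrial clearance, had a strengthened fall of -1.46 in NR cells and -0.23 in parental cells. ENO1 and PKM, enzymes of late glycolysis, weakened, with interactions of 0.39 and 0.41; the ENO1 call was lost with all 24 libraries in 1 fit.

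Reversal in the other direction, a rise in NR cells and a fall in parental cells, was largest by the naming rule for FGFBP1, GRHL3, NRG1, ABCG2 and CLDN11. FGFBP1, a carrier that releases fibroblast growth factors from the matrix, had 14.1, 12.9 and 13.3 CPM in the NR neratinib libraries and 7.98, 7.32 and 7.44 CPM in the NR controls, against 9.51, 10.2 and 9.02 CPM in the parental neratinib libraries and 30.5, 31.3 and 31.5 CPM in the parental controls. Its log2 fold change was 0.7 in NR cells and -1.8 in parental cells, and the interaction 2.5 ± 0.11 (SE, edgeR adjusted p = 2.1e-09). NRG1 (ENSG00000157168.14, hg19 chr8:31496902-32622548), neuregulin 1, had 32.4, 34.2 and 35.8 CPM in NR cells on neratinib and 26.2, 24.6 and 27.6 CPM in NR controls, and in parental cells 8.78, 7.63 and 6.63 CPM on neratinib and 24.5, 25.7 and 22.7 CPM in controls. NRG1 controls overlapped between NR and parental cells, and NR dishes on neratinib were above all the others, with a log2 fold change of 0.26 in NR cells and -1.77 in parental cells. ABCG2, a drug efflux pump, had 10.5, 12.9 and 14.1 CPM in NR dishes with neratinib and 9.2, 9.12 and 7.95 CPM in those without it, and 0.703, 0.897 and 0.747 CPM in parental dishes with neratinib and 1.69, 2.29 and 2.02 CPM in those without it. Every NR dish lay above every parental dish for ABCG2, and the interaction was 1.84 ± 0.21 (SE, edgeR adjusted p = 2.8e-05). GRHL3, a transcription factor of the epithelial barrier, rose by 1.67 in NR cells and fell by 0.65 in parental cells. CLDN11, a tight junction claudin, rose by 0.77 in NR cells and fell by 0.86 in parental cells.

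Gained rises included KRT5, WNT10A and FAT2, which NR cells held at a lower level than parental cells. In the list of keratins and desmosome genes KRT5 was the 1 gained rise among 22 tested, where 1.23% of all genes had gained rises. KRT5 (ENSG00000186081.7, hg19 chr12:52908359-52914471), the keratin of basal urothelial cells, had 1280, 1180 and 1240 CPM in the NR neratinib libraries and 536, 537 and 569 CPM in the NR controls, against 4320, 4380 and 4100 CPM in the parental neratinib libraries and 4000, 3950 and 3890 CPM in the parental controls. Neratinib raised it in NR cells, 1.05 on the log2 scale, with 0.01 in parental cells, but NR dishes on neratinib stayed below every parental dish. The interaction was 1.04 ± 0.08 (SE, edgeR adjusted p = 3.8e-07). KRT5 makes up most of the urothelial marker sum, which moved with it. WNT10A, a Wnt ligand, had 9.75, 7.35 and 8.14 CPM in NR cells on neratinib and 1.09, 1.43 and 1.49 CPM in NR controls, and in parental cells 81.4, 69.9 and 67 CPM on neratinib and 60.9, 61.7 and 66.2 CPM in controls. FAT2, a large cadherin of squamous epithelium, averaged 66.9 ± 3.78 CPM in NR neratinib and 21.8 ± 1.08 CPM in NR control dishes, against 543 ± 29.4 CPM in parental neratinib and 489 ± 36.1 CPM in parental control dishes (SD, n = 3 each). OVOL1, a factor of epithelial differentiation, and SMAD6, an inhibitor of BMP signalling, rose by 1.59 and 1.56 in NR cells, with parental values of 0.01 and -0.11. For KRT5, WNT10A and FAT2 the order was NR control, then NR neratinib, then the parental groups. MPPED2, a phosphodiesterase-like protein, was also sorted here. It had 1 to 3 counts in each NR control and 12 to 35 in each NR neratinib library, against 1463 to 1808 in parental cells.

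The gained falls named here were of genes whose NR controls stood above the parental controls. ESM1, a secreted proteoglycan of endothelial cells that tumour cells can also make, had 0.947, 1.78 and 1.67 CPM in the NR neratinib libraries and 27.3, 27.9 and 24.5 CPM in the NR controls, against 0.378, 0.424 and 0.234 CPM in the parental neratinib libraries and 0.398, 0.468 and 0.682 CPM in the parental controls. Its log2 fold change was -4.32 in NR cells, and every parental library held under 1 CPM. BCL2L1 (ENSG00000171552.8, hg19 chr20:30252255-30311792), which encodes the survival protein BCL-XL, had 156, 137 and 141 CPM in NR dishes with neratinib and 259, 254 and 288 CPM in those without it, and 175, 176 and 172 CPM in parental dishes with neratinib and 161, 157 and 162 CPM in those without it. NR controls were the highest group and NR dishes on neratinib the lowest, with an interaction of -1.03 ± 0.1 (SE, edgeR adjusted p = 3.5e-06). VIM, vimentin of the mesenchymal cytoskeleton, averaged 180 ± 30.7 CPM in NR neratinib and 305 ± 16.4 CPM in NR control dishes, against 120 ± 1.56 CPM in parental neratinib and 97.3 ± 7.36 CPM in parental control dishes (SD, n = 3 each), with an interaction of -1.09 ± 0.13 (SE). IRS2, an adaptor of insulin signalling, and MOB3A, a kinase adaptor, had interactions of -1.19 and -1.73. PDLIM2, DLL4 and PCDH19 had the lowest interactions with ESM1 and MOB3A among gained falls that reached 10 CPM in a group. The call of PCDH19 was lost without parental neratinib replicate 3, at -1.57, and that of DLL4 without parental control replicate 3, at -1.49, among others. DLL4 and PCDH19 had 2 to 9 counts per library in parental cells.

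Strengthened responses included PTGS2 and DIO2. PTGS2, cyclooxygenase 2, had 8.5, 9.4 and 9.66 CPM in the NR neratinib libraries and 100, 108 and 104 CPM in the NR controls, against 7.73, 7.88 and 8.2 CPM in the parental neratinib libraries and 20.5, 18.4 and 16.8 CPM in the parental controls. It stood higher in NR controls than in parental controls and fell further, -3.63 in NR cells and -1.33 in parental cells, with an interaction of -2.29 ± 0.11 (SE, edgeR adjusted p = 3.8e-09). DIO2, the deiodinase that activates thyroid hormone, had 68.6, 78.2 and 73.9 CPM in NR cells on neratinib and 9.36, 10.2 and 7.95 CPM in NR controls, and in parental cells 14.1, 14.2 and 14.2 CPM on neratinib and 10.3, 9.89 and 8.47 CPM in controls. NR and parental controls overlapped for DIO2, while NR dishes on neratinib lay above all the others. The interaction was 2.42 ± 0.13 (SE, edgeR adjusted p = 1e-08). ATOH8, a helix-loop-helix factor, averaged 72.6 ± 9.79 CPM in NR neratinib and 5.9 ± 0.0832 CPM in NR control dishes, against 43.9 ± 1.5 CPM in parental neratinib and 13.7 ± 2.18 CPM in parental control dishes (SD, n = 3 each). LOXL4 and CADM1, a matrix crosslinking enzyme and an adhesion protein, had strengthened rises from a low NR level, with NR controls under 1 CPM. Other strengthened falls were TMEM200A, FLRT3, BTBD19 and PTPRN2, with interactions of -2.21, -1.92, -1.91 and -1.76. CD274, which encodes the immune checkpoint ligand PD-L1, averaged 26.6 ± 4.33 CPM in NR neratinib and 80.2 ± 2.66 CPM in NR control dishes, against 15.3 ± 1.14 CPM in parental neratinib and 20.6 ± 0.649 CPM in parental control dishes (SD, n = 3 each), a strengthened fall with an interaction of -1.19.

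**Figure D5:**
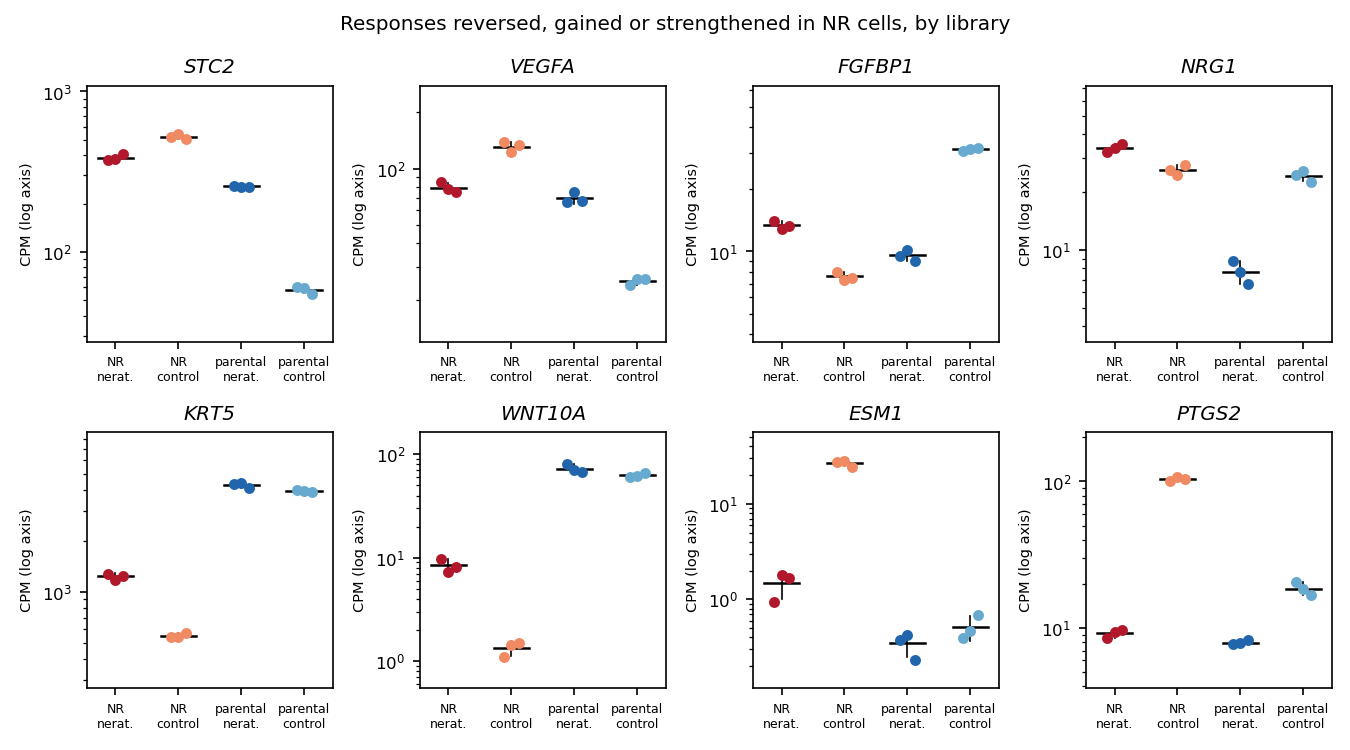
CPM on a log axis in each of 12 libraries for reversed (STC2, VEGFA, FGFBP1, NRG1), gained (KRT5, WNT10A, ESM1) and strengthened (PTGS2) responses; points are libraries, bars the mean and vertical lines the SD (n = 3). For STC2 and VEGFA neratinib lies below control in NR cells and above it in parental cells, and for FGFBP1 and NRG1 the order is the opposite.

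Inflammatory, FOXO and chaperone genes were divided among classes. Of 26 tested NF-kB and inflammatory genes 5 were higher, or 3 without parental control replicate 1 or 2, and 6 lower in the interaction, where 7.39% of all genes were higher and 6.48% lower, so that 3 is near the share of all genes. In this list 8 falls were kept, as were 11.3% over all genes, among them CSF3, a colony-stimulating factor, with 59.3, 44 and 53.9 CPM in NR cells on neratinib and 378, 362 and 454 CPM in NR controls, and in parental cells 0.784, 0.872 and 1.05 CPM on neratinib and 10.6, 11.3 and 9.86 CPM in controls. CSF3 on neratinib stayed above the parental controls in every NR dish. CSF2 and IL8, a further colony-stimulating factor and a chemokine, weakened, and LIF strengthened, with interactions of 0.71, 0.48 and -0.52. Of 23 tested FOXO targets 7 rises were kept and 4 weakened, where 11% and 1.1% of all genes had such rises. In the interaction 7 of these targets were lower, against 6.48% of all genes, and 2 were higher, near the 7.39% of all genes. FBXO32, the ubiquitin ligase atrogin-1, strengthened (1.02 in NR cells and 0.31 in parental cells). TSC22D3, a glucocorticoid-induced gene, weakened (1.84 in NR cells and 2.48 in parental cells). Of 14 tested chaperones of the endoplasmic reticulum 6 falls weakened, as did 2.43% over all genes. CALR, calreticulin, averaged 1060 ± 26.4 CPM in NR neratinib and 1120 ± 61.7 CPM in NR control dishes (SD, n = 3 each). It averaged 366 ± 7.82 CPM in parental neratinib and 773 ± 21.9 CPM in parental control dishes (SD, n = 3 each). HERPUD1 and XBP1, targets of the unfolded protein response, rose less in NR cells, with interactions of -0.76 and -0.37.

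Stress, survival and matrix genes were also divided. Of 10 tested NRF2 targets, genes of the response to oxidants, 9 rose in NR cells and 8 in parental cells, where 18.4% and 23.9% of all genes rose. In the interaction 4 were lower, against 6.48% of all genes, and 1 was higher, near the 7.39% of all genes. SLC7A11, the cystine transporter, averaged 290 ± 56.5 CPM in NR neratinib and 43.8 ± 5.04 CPM in NR control dishes, against 283 ± 35.2 CPM in parental neratinib and 26.9 ± 1.75 CPM in parental control dishes (SD, n = 3 each), a weakened rise with an interaction of -0.68 ± 0.17 (SE, edgeR adjusted p = 0.012). HMOX1, haem oxygenase 1, rose by 1.08 in NR cells and 2.03 in parental cells. In the BCL2 family 4 of 14 tested genes were lower and 0 higher, or 1 lower without NR control replicate 2 and 2 lower without any 1 of parental control replicates 1, 2 and 3, parental neratinib replicate 3 or NR neratinib replicate 3. The share of all genes was 6.48%, to which the counts of 1 and 2 are near. Beside BCL2L1, PMAIP1, which encodes the death-promoting protein NOXA, lost its rise (-0.03 in NR cells and 0.76 in parental cells), and BBC3, which encodes PUMA, weakened (0.79 in NR cells and 1.54 in parental cells). Among 12 tested matrix proteases 6 were higher and 5 lower, or 3 lower without parental control replicate 3 or NR neratinib replicate 3, where 7.39% of all genes were higher and 6.48% lower. PLAT and PLAUR, the tissue plasminogen activator and the urokinase receptor, had strengthened falls with interactions of -0.9 and -0.74, and MMP10, a stromelysin, had a weakened fall with one of 1.45.

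Of 32 tested components and sensors of mTORC1, 2 were higher and 3 lower in the interaction, close to the 7.39% and 6.48% of all genes, and 10 had no response called. The 3 lower ones were DDIT4, SESN2 and EIF4EBP1, the first 2 of which restrain mTORC1 and the last of which restrains translation below it. DDIT4 averaged 96.9 ± 18.8 CPM in NR neratinib and 71.4 ± 5.16 CPM in NR control dishes, against 139 ± 11.5 CPM in parental neratinib and 40.8 ± 2.64 CPM in parental control dishes (SD, n = 3 each), with an interaction of -1.34 ± 0.17 (SE, edgeR adjusted p = 5.4e-05). Of 20 other receptor tyrosine kinases tested, 3 were higher, against 7.39% of all genes, and 0 lower, near the 6.48% of all genes. Among these kinases 10 had no response called, as had 41.6% of all genes. FGFR2, a fibroblast growth factor receptor, was reversed (0.35 in NR cells and -0.18 in parental cells), and EPHA2, an ephrin receptor, kept its fall (-1.12 in NR cells and -1.24 in parental cells). Among 6 tested ABC transporters of drug efflux, ABCC3 rose in both, by 1.59 in NR cells and 2.25 in parental cells.

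Whether the interaction differed from that of OVCAR8, an ovarian carcinoma line given 1 µM neratinib, was tested in 1 fit of all 24 libraries, in which doses and lines differ together. Of 20250 genes, 290 (1.43%) had a higher and 258 (1.27%) a lower interaction in 5637. Without parental control replicate 2 of OVCAR8, which stood apart from its group, these were 850 (4.08%) and 956 (4.59%) of 20813. Of 23 sterol genes 8 were higher in 5637 and 0 lower, and 12 and 0 without that library, with median interactions of 1.1 in 5637 and 0.74 in OVCAR8. SQLE had an interaction of 1.88 in 5637 and 0.92 in OVCAR8, a difference of 0.96 ± 0.15 (SE, edgeR adjusted p = 0.00032). For the 31 mitosis genes 0 differed in either direction, or 3 higher and 1 lower without that library, and the medians were 0.66 in 5637 and 0.69 in OVCAR8. Of 34 ATF4 genes 8 were higher in 5637 and 2 lower, or 17 and 2 without that library. Their median interaction was -0.42 in 5637 and -0.93 in OVCAR8, so the list was weakened more in OVCAR8. In OVCAR8 alone 27 of the 34 had a lower interaction.

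Several responses named above differed between the lines. CCND1 had an interaction of -0.91 in 5637 and 0.61 in OVCAR8 (edgeR adjusted p of the difference 2.4e-05), HBEGF -1.5 in 5637 and 0.74 in OVCAR8 (4.3e-08) and SLC6A9 0.98 in 5637 and -1.88 in OVCAR8 (4.3e-08). BCL2L1 (-1.04 in 5637 and 0.26 in OVCAR8, 5e-06) and NRG1 (2.01 in 5637 and 0.51 in OVCAR8, 6.4e-06) also differed. For STC2 the interaction was lower in both lines, -2.61 in 5637 and -1.59 in OVCAR8, with a difference of -1.02 ± 0.12 (SE, edgeR adjusted p = 2.4e-05). TRIB3 (-1.59 in 5637 and -1.94 in OVCAR8) and FGFBP1 (2.49 in 5637 and 2.45 in OVCAR8) showed no call for a difference, with adjusted p of 0.54 and 1 in edgeR.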

How the data were processed

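Poly(A) RNA of 5637 cells was sequenced as paired ends from stranded libraries, per the labels' protocols. The deposited values are raw counts per gene, in 1 table for 24 libraries. The submitters' processing notes name FastQC, STAR 2.5.3a, featureCounts 1.15.2, DESeq2 1.18.1 and build hg19, and how counting used strand is not given in the sources used here, so overlapping and antisense genes cannot be told apart, and counts of close paralogs such as the keratins may be split.

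The 12 libraries of 5637 were fitted with the quasi-likelihood method of edgeR 4.0.16 in R 4.3.3, with 4 group means, TMM scaling and its default filter on low counts, which left 18307 of 39786 genes and 8 residual degrees of freedom. The common biological coefficient of variation was 8.03%. The Benjamini-Hochberg threshold was 0.05 over all genes tested, and intervals are at 95%. CPM scales the library total, without TMM. No replicate pair agreed within sampling noise. The NR neratinib pairs agreed least, with a chi-square per degree of freedom of 17.2 to 31.7, against 2.86 to 15.9 in the other groups. The code was tested on simulated data. Alternatives used limma 3.58.1 and DESeq2 1.42.0, other scalings, filters and thresholds, all 24 libraries, a replicate block and each library left out.

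The genes and lists were chosen with earlier results of these data known. By the naming rule, the 5 largest interactions per class and direction with at least 10 CPM in 1 group, up to 3 members per list and direction with at least 5 CPM, the largest kept effects, EGFR, ERBB2 and ERBB3 are named, in part. Marker genes and the 5 genes named for their promoters are outside it. Sequences are from RefSeq (GRCh38.p14), and gene positions in hg19 are those of the deposited table. Some members of the lists are counted but not reported here by name.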

Additional observations from a re-analysis of the deposited data

Results flagged for a closer look

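The drug effect differed between NR and parental cells, by the interaction test of edgeR, for 1352 genes with a higher and 1187 with a lower interaction, and 221 of them responded in opposite directions.

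Of the reversed genes named by size, STC2 (-2.6), VEGFA (-2.21), DYSF (-2.19), ZNF469 (-2.05) and PELI2 (-2.98) fell in NR cells and rose in parental cells, in log2 interaction. FGFBP1 (2.5), GRHL3 (2.32), NRG1 (2.03), ABCG2 (1.84) and CLDN11 (1.63) rose in NR cells and fell in parental cells. PELI2 rests on at most 5 counts per NR library.

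The interaction differed between 5637 and OVCAR8 for 290 genes higher and 258 lower in 5637.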

How the results depend on the processing

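Numbers of genes per class depended on the fit and threshold. With all 24 libraries in 1 fit, 712 genes were higher and 747 lower in the interaction, with 267 lost rises, 283 lost falls, 274 weakened, 156 strengthened and 120 reversed responses and 144 gained rises. The cause was not tested. At an adjusted p under 0.01 there were 721 higher and 592 lower, 175 lost rises, 285 lost falls, 295 weakened, 146 strengthened and 99 reversed responses, 118 gained rises and 186 gained falls. With a fold of at least 2 in each call there were 97 lost rises, 81 lost falls, 25 weakened, 22 strengthened and 8 reversed responses, 367 kept rises, 199 kept falls, 75 gained rises and 95 gained falls. Scaling to library size alone gave 3102 kept rises and 1146 kept falls.

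Leaving out each library gave 977 to 1688 higher and 854 to 1653 lower interactions, 257 to 559 lost rises, 329 to 643 lost falls, 406 to 729 weakened, 201 to 363 strengthened and 157 to 299 reversed responses, 1785 to 1982 kept rises, 1723 to 2059 kept falls, 171 to 270 gained rises and 213 to 445 gained falls. Lost rises were lowest without parental control replicate 2, and weakened responses without NR control replicate 1. Higher and lower interaction calls were both most numerous without NR neratinib replicate 1. Without OVCAR8 parental control replicate 2 the line difference had 850 higher and 956 lower calls.

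With the replicate block 1137 genes were higher and 1019 lower. Libraries of the same number had correlations of deviations from -0.71 to 0.52 (median -0.22, n = 18 pairs), so the numbers do not pair the libraries. Those of different number and group had -0.77 to 0.83 (median 0.0525, n = 36 pairs), so some libraries of different groups deviated together. The main fit does not model this, and its cause was not tested.

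Of 2539 pairs of a gene in the text and an alternative fit, 2476 kept the call or its absence, 51 lost the call and 12 gained it. Among pairs with a call in either fit 0 reversed direction. Direction was not compared for pairs without a call in both fits. Of 100 such genes called, 85 held in every alternative fit. The stricter thresholds were applied only to the numbers of genes called or in each class, and not to these pairs. At the stricter adjusted p some genes in the text, such as BBC3 and MYC, would lose their interaction call. Calls rest on 3 dishes per group. Each library held 34.9 M counts or more. Genes under about 10 counts in the libraries of 1 group or more have effects of uncertain size in that state. Examples are MMP13, KRT13, MPPED2, PELI2, DLL4, PCDH19, ADM2 and INHBE.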
